A study of Mus musculus with 6 samples.

Results

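The genes described here encode the secreted and membrane-bound metalloproteinases of the extracellular matrix and their inhibitors. They comprise the matrix metalloproteinases (MMPs), the ADAMTS proteases (a disintegrin and metalloproteinase with thrombospondin motifs), the ADAMTS-like proteins and the tissue inhibitors of metalloproteinases (TIMPs). Members were taken by a rule on gene symbols, which was set with earlier results of these data known. Of 22180 genes measured, 49 were members: 22 MMP, 18 ADAMTS, 5 ADAMTS-like and 4 TIMP genes. Each was represented by its brightest probe set among those that carry 1 gene symbol, and no member was removed for a low value. Mmp15 and Adamts2 were not analysed here.

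The data came from KP1, a single mouse small cell lung cancer (SCLC) line, which derives from the Rb/p53/p130 triple knockout mouse model, so all cells of both groups carry those deletions. Cells received Notch1-ICD-ires-GFP, which makes the released, active fragment of the Notch1 receptor and GFP from 1 transcript (N1ICD, 3 arrays), or an empty ires-GFP vector (control, 3 arrays). GFP-positive cells were sorted 48 hours after transfection, and total RNA was hybridised to Affymetrix Mouse Gene 2.0 ST arrays. The labels call the samples of a group biological replicates without naming separate cultures or transfections, so the p-values measure the spread between these samples. Which promoter drives the insert is not stated in the labels.

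MMPs are made as inactive precursors whose propeptide blocks a catalytic zinc, and they become active once that propeptide is displaced or cut. Together they cleave collagens, laminins, proteoglycans and growth factor carriers, while ADAMTS proteases cut large proteoglycans, procollagens and von Willebrand factor. TIMPs bind the active site and block it. ADAMTS-like proteins share the ancillary domains of ADAMTS proteases but lack the catalytic one, and several bind microfibrils. In lung tumors much of this proteolysis is known to come from stromal cells, which a sorted cell line lacks.

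Values are log2 expression after robust multi-array averaging (RMA), and differences are N1ICD minus control, tested with limma across all genes. A gene passed the test when its Benjamini-Hochberg adjusted p lay under 0.05. The array medians over the tested genes lay between 6.14 and 6.24. Notch1 averaged 7.76 ± 0.29 in N1ICD cells and 6.17 ± 0.19 in control cells (SD, n = 3 each). The insert holds part of Notch1, so its transcript and that of the cells' own gene cannot be told apart here. Signals of different probe sets are not comparable as amounts of RNA, and precision is limited by having 3 arrays a group. In bulk RNA, fewer cells of a type and less RNA per cell cannot be told apart.

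In N1ICD cells 8 members rose and 4 fell. The rises were the collagenase Mmp13, the proteases Adamts5, Adamts9 and Adamts18, the ADAMTS-like gene Adamtsl4 and the inhibitors Timp2, Timp3 and Timp4. The falls were the gelatinase Mmp2, the membrane-type protease Mmp16, Adamts17 and Adamtsl2. The other 37 members did not pass the test. The members called made up 24.5% of the 49, against 7.10% of all genes tested. Rises were 16.3% of members against 3.82% of all genes, and falls 8.16% against 3.27%. With limma fitted to all 41345 probe sets and p-values adjusted over them, 6 members rose and 2 fell. Mmp16, Adamts17, Adamtsl4 and Adamts9 no longer passed in this setting, which was added after the data were seen. The median log2 change was 0.05 over the members and -0.02 over all genes. All 12 called members had N1ICD and control arrays that did not overlap. Counting members short of the test, 17 of 49 were separated in this way (34.7%), against 26.1% of all genes.

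**Figure D1:**
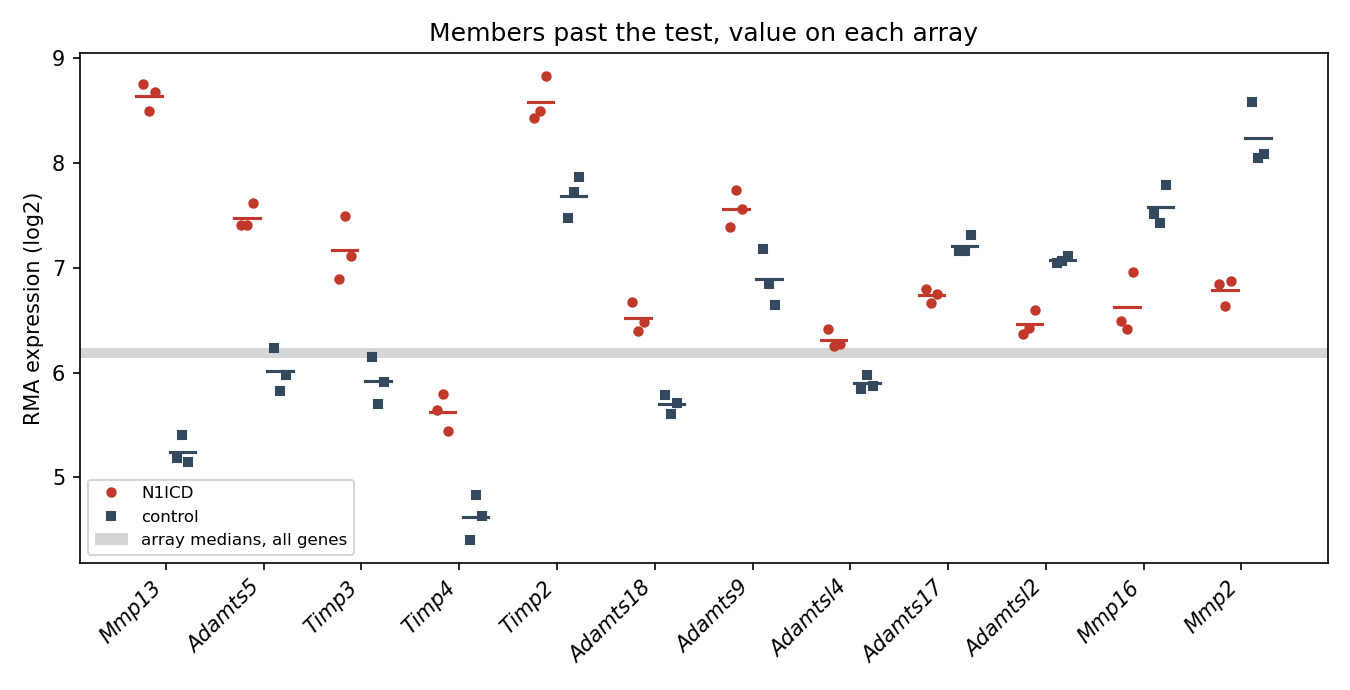
RMA expression (log2) on each array of the 12 members that passed the test, with N1ICD arrays as circles left of control arrays as squares, horizontal bars at the group means and a grey band over the range of the array medians. Mmp13 lay between 8.49 and 8.75 in N1ICD cells and between 5.15 and 5.40 in control cells, and in none of the 12 genes did the groups overlap.

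**Figure D2:**
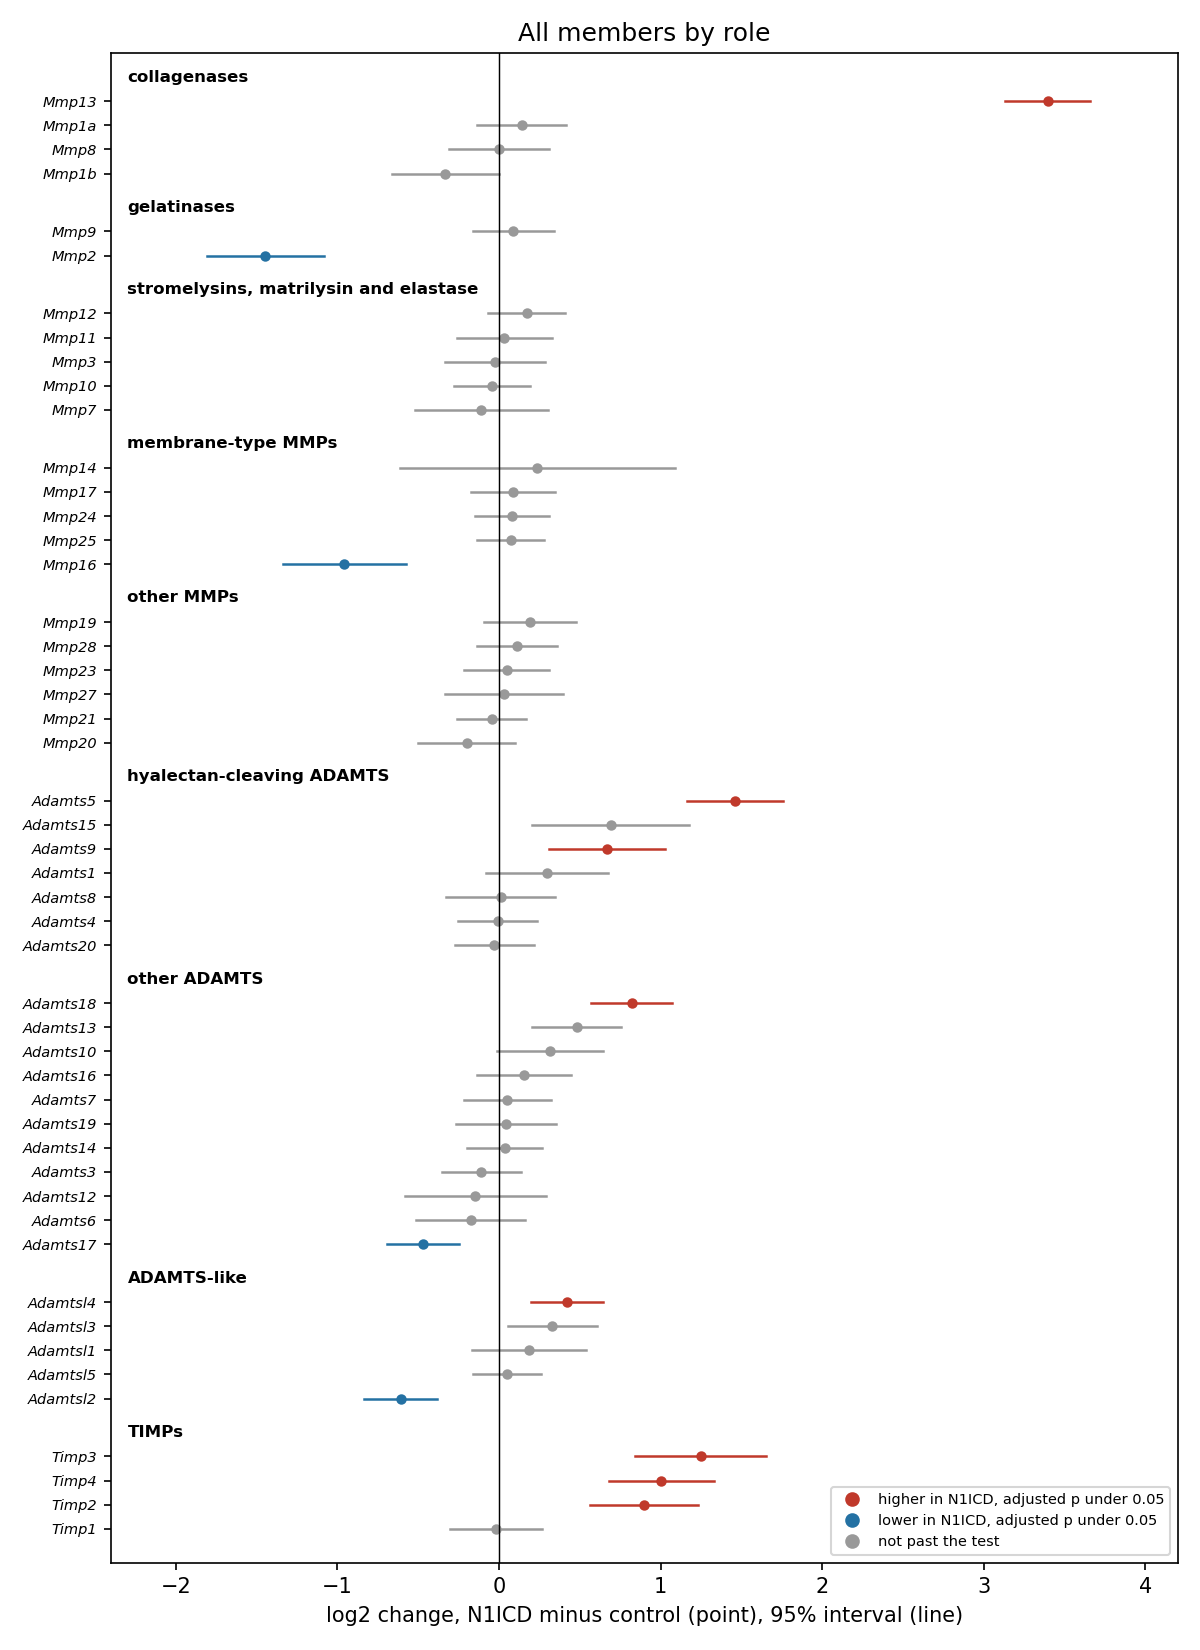
Log2 change (N1ICD minus control) of all 49 members, grouped by role, with 95% intervals of the limma fit as lines. Red points rose, blue points fell and grey points did not pass the test. Changes ranged from -1.45 for Mmp2 to 3.40 for Mmp13.

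Mmp13 encodes collagenase 3, which cleaves fibrillar collagens and is best known from cartilage and bone. It had 8.75, 8.49 and 8.68 in N1ICD cells, against 5.19, 5.40 and 5.15 in control cells. The N1ICD arrays lay close together and far above every control array. The difference was 10.5-fold (log2 change 3.40 ± 0.11 SE, limma adjusted p = 1.85e-06), the largest among the members. In control cells its mean, 5.24, was lower than all array medians. RMA compresses changes of dim probe sets and background was not measured, so the size holds for these RMA values only. The other collagenases, Mmp8, Mmp1a and Mmp1b, did not pass the test, with log2 changes of -0.00, 0.14 and -0.33, and their group means were between 2.24 and 4.25. Mmp1a and Mmp1b are close paralogs, so their probe sets may share signal.

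In the RefSeq table Mmp13 is the first of 10 MMP genes that lie side by side on chromosome 9, with no other protein-coding gene between them. In map order they are Mmp13, Mmp12, Mmp1b, Mmp3, Mmp1a, Mmp10, Mmp8, Mmp27, Mmp20 and Mmp7. The other 9 genes of the cluster did not pass the test, with log2 changes between -0.33 and 0.17 and limma adjusted p-values of 0.25 or more. Their control means, 2.57 to 5.03, also lay below every array median. For its nearest neighbor Mmp12, a macrophage elastase, the 95% interval was -0.07 to 0.41.

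**Figure D3:**
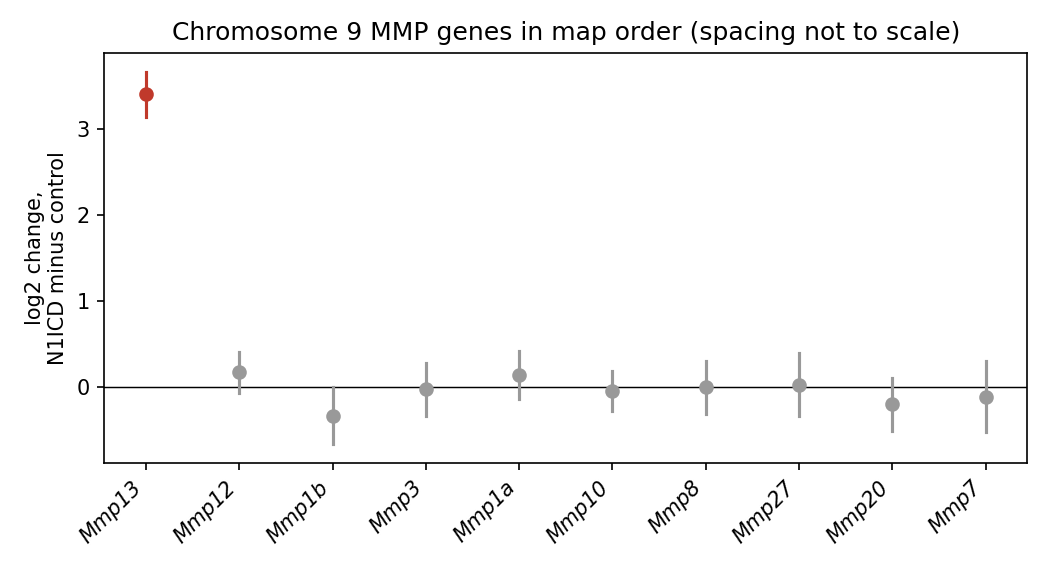
Log2 change (N1ICD minus control) with 95% intervals of the limma fit for the 10 MMP genes of chromosome 9 in map order, spacing not to scale. Mmp13 stood at 3.40 and the other 9 between -0.33 and 0.17.

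The promoter of Mmp13 is known to hold an AP-1 site and a RUNX site close to the start. The 250 bases before the start are shown because this gene passed the test and the other genes of the cluster did not. Capitals mark the letters TGANTCA, which AP-1 binds (TGACTCA here, 35 to 29 bases before the start), and TGTGGT, which RUNX factors bind (read as ACCACA on this strand, 118 to 113 bases before the start). The sequence is RefSeq's, build GRCm38.p6.
Mmp13, chr9:7272264-7272513, plus strand: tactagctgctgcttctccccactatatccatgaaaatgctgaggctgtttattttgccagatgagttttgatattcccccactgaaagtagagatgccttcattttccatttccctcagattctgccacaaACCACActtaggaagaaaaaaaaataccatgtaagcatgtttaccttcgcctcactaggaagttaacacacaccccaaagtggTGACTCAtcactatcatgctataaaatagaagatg

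Both strands were searched. Over all 32851 promoter entries of the RefSeq table, 6.75% held TGANTCA in these 250 bases, 14.0% held TGTGGT and 21.6% held TGGGAA, the core that RBPJ, the DNA-binding partner of the Notch1 intracellular domain, recognises. TGGGAA was not among the letters of the Mmp13 window. Entries existed for 34 of the 49 members and 9 of the 12 called. Mmp13 was the called member with TGANTCA or TGTGGT, and Adamtsl2 the called member with TGGGAA, 1 of 9 for each motif. Counting every start listed for a gene, TGTGGT was also present in the cluster genes Mmp1b, Mmp27 and Mmp7. On the same count TGANTCA was present in 8 of the 10 cluster genes, Mmp1b and Mmp7 among them. In 6 of them, Mmp13 included, it lay within the last 80 bases before any listed start. Among all entries, with each start counted by itself, the share was 2.11%, so the counts are not alike. The other 5 windows of 80 bases are shown with TGANTCA in capitals. Any part of these letters in the change of Mmp13 was not tested. A match describes letters, and binding was not measured.
Mmp12 (later start), chr9:7347294-7347373, plus strand: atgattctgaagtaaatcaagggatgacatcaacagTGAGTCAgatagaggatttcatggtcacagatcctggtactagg
Mmp3, chr9:7445742-7445821, plus strand: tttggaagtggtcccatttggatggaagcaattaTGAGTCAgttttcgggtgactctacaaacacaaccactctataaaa
Mmp1a, chr9:7464061-7464140, plus strand: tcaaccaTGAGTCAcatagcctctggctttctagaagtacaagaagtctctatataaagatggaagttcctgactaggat
Mmp10, chr9:7502262-7502341, plus strand: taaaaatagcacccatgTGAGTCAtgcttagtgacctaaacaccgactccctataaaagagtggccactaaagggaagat
Mmp7, chr9:7692010-7692089, plus strand: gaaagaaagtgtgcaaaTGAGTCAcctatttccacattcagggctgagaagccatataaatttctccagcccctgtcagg

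The gelatinases cleave denatured collagen and the collagen of basement membranes. Mmp2, gelatinase A, had 6.85, 6.64 and 6.88 in N1ICD cells, against 8.58, 8.04 and 8.08 in control cells. Every N1ICD array was lower than every control array, and control replicate 1 was the highest. The fall was 2.73-fold (log2 change -1.45 ± 0.16 SE, limma adjusted p = 0.00111) and was the largest fall among the members. Mmp9, gelatinase B, averaged 5.28 ± 0.09 in N1ICD cells and 5.19 ± 0.15 in control cells (SD, n = 3 each), with overlapping groups and an adjusted p of 0.732 by limma.

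Membrane-type MMPs are anchored at the cell surface, where Mmp14 and Mmp16 can activate the precursor of Mmp2. Mmp16, known as MT3-MMP, had 6.49, 6.41 and 6.96 in N1ICD cells, against 7.52, 7.43 and 7.79 in control cells. It fell 1.94-fold (log2 change -0.96 ± 0.17 SE, limma adjusted p = 0.0119). The third N1ICD array was the nearest to the control arrays. The call was lost by a narrow margin without N1ICD replicate 2 (adjusted p = 0.0511), and also when all probe sets were tested (adjusted p = 0.0561).

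Mmp14, known as MT1-MMP, had 6.88, 5.88 and 5.70 in N1ICD cells, against 6.58, 5.82 and 5.35 in control cells. The groups overlapped, and replicate 1 was the highest array in each. Its SDs, 0.64 in N1ICD cells and 0.62 in control cells, compare with median SDs of 0.16 and 0.11 over the members. The log2 change of 0.24 had a 95% interval of -0.61 to 1.09 in the unpaired fit, the widest among the members. Changes between those bounds were not distinguishable at this spread in that fit. The sign of the change turned without N1ICD replicate 1 (-0.13) or control replicate 3 (-0.05). With the replicate number as a block its SE was 0.10 in place of 0.37 (limma adjusted p = 0.229). Mmp24 (MT5-MMP), an enzyme known from neurons, had the highest RMA value among the members, 10.03 ± 0.13 in N1ICD cells and 9.95 ± 0.03 in control cells (SD, n = 3 each). Its log2 change of 0.08 had a 95% interval of -0.15 to 0.31. A further probe set shared by Mmp24 and BC029722 changed by -0.03. The glycolipid-anchored Mmp17 and Mmp25 changed by 0.09 and 0.07 and did not pass the test.

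None of the 5 stromelysin, matrilysin and elastase genes (Mmp3, Mmp10, Mmp11, Mmp7 and Mmp12) passed the limma test at an adjusted p under 0.05, and 0 had an unadjusted p under 0.05. Their log2 changes lay between -0.11 and 0.17 and their lowest adjusted p was 0.428. The same held for Mmp19, Mmp20 (enamelysin), Mmp21, Mmp23, Mmp27 and Mmp28 (epilysin), with changes between -0.20 and 0.19 and a lowest adjusted p of 0.459. All 11 genes had means below every array median in both groups.

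The ADAMTS proteases that cleave hyalectans, the hyaluronan-binding proteoglycans aggrecan, versican, brevican and neurocan, had 7 members, of which 2 rose and 5 did not pass the test. Adamts5, a main aggrecanase of cartilage, had 7.41, 7.41 and 7.62 in N1ICD cells, against 6.24, 5.82 and 5.98 in control cells. It rose 2.76-fold (log2 change 1.46 ± 0.13 SE, limma adjusted p = 0.000362). The groups stood more than 1 log2 unit apart at their nearest arrays. Adamts9, which cleaves versican, had 7.39, 7.74 and 7.56 in N1ICD cells, against 7.18, 6.85 and 6.65 in control cells. Its rise of 0.67 ± 0.16 on the log2 scale passed narrowly (adjusted p = 0.04). That call was lost without any 1 array other than control replicate 1 (adjusted p up to 0.145, without N1ICD replicate 2), and with all probe sets tested (adjusted p = 0.131).

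Adamts15 had 5.63, 6.46 and 6.43 in N1ICD cells, against 5.39, 5.59 and 5.46 in control cells. All N1ICD arrays were higher, but the first lay near the controls, and the log2 change of 0.69 did not pass the test (adjusted p = 0.103). Without N1ICD replicate 1 it was 0.96, with an adjusted p of 0.00398. Adamts1, which lies next to Adamts5 on chromosome 16 with 0 protein-coding genes between, averaged 7.22 ± 0.33 in N1ICD cells and 6.93 ± 0.11 in control cells (SD, n = 3 each). Its log2 change of 0.29 did not pass the test (adjusted p = 0.383), and whether it differed from that of Adamts5 was not tested. Without N1ICD replicate 2 the change of Adamts1 was 0.14, and without N1ICD replicate 1 it was 0.47. Adamts4, Adamts8 and Adamts20 changed by -0.01, 0.01 and -0.03 and did not pass. A second probe set of Adamts8, slightly dimmer, changed by 0.32 (adjusted p = 0.581 among all probe sets).

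Of the other 11 ADAMTS genes, 1 rose and 1 fell. Adamts18, an orphan protease studied in lung branching of mice, had 6.68, 6.40 and 6.49 in N1ICD cells, against 5.78, 5.60 and 5.71 in control cells. It rose 1.77-fold (log2 change 0.82 ± 0.11 SE, limma adjusted p = 0.00336), and no N1ICD array came near the controls. Adamts17, which acts on fibrillin microfibrils, fell 1.39-fold (log2 change -0.47 ± 0.10 SE, adjusted p = 0.0243). Its arrays read 6.80, 6.66 and 6.75 in N1ICD cells, against 7.16, 7.16 and 7.31 in control cells. The gap was small and the call was lost without any 1 array other than N1ICD replicate 1 (adjusted p up to 0.101, without control replicate 3). With all probe sets tested its adjusted p was 0.0855.

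Adamts13, the protease of von Willebrand factor, lay just short of the threshold with 5.68, 6.07 and 5.83 in N1ICD cells, against 5.46, 5.32 and 5.35 in control cells (log2 change 0.48, adjusted p = 0.0518). Its groups did not overlap. Adamts10 had 8.02, 7.65 and 7.48 in N1ICD cells, against 7.41, 7.43 and 7.36 in control cells. Those groups did not overlap either, yet the log2 change of 0.32 did not pass the test (adjusted p = 0.266), and it was 0.17 without N1ICD replicate 1. The procollagen N-proteinases Adamts3 and Adamts14, the pair Adamts7 and Adamts12 that cleaves cartilage oligomeric matrix protein, and Adamts6, Adamts16 and Adamts19 had log2 changes between -0.18 and 0.15.

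Among the 5 ADAMTS-like genes, Adamtsl2 fell and Adamtsl4 rose. Adamtsl2, which binds fibrillin and latent TGF-beta binding protein, had 6.37, 6.42 and 6.60 in N1ICD cells, against 7.04, 7.07 and 7.11 in control cells. The fall was 1.52-fold (log2 change -0.61 ± 0.10 SE, limma adjusted p = 0.00888) and the control arrays were nearly equal. Adamtsl4, a fibrillin-binding protein of the lens zonule, had 6.42, 6.25 and 6.27 in N1ICD cells, against 5.85, 5.97 and 5.87 in control cells. Its change of 0.42 ± 0.10 on the log2 scale was the smallest that passed (adjusted p = 0.0395), and the call was lost without each of the 6 arrays (adjusted p up to 0.135) and with all probe sets tested (adjusted p = 0.121). Adamtsl1, Adamtsl3 and Adamtsl5 changed by 0.19, 0.33 and 0.05 and did not pass the test.

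Of the 4 TIMP genes 3 rose, and Timp1 did not pass the test. Timp3, the inhibitor that binds to the matrix and also blocks several ADAM and ADAMTS proteases, had 6.89, 7.50 and 7.12 in N1ICD cells, against 6.15, 5.70 and 5.91 in control cells. It rose 2.37-fold (log2 change 1.25 ± 0.18 SE, limma adjusted p = 0.00429). Timp4 had 5.64, 5.79 and 5.44 in N1ICD cells, against 4.40, 4.83 and 4.63 in control cells. It rose 2.01-fold (log2 change 1.00 ± 0.14 SE, adjusted p = 0.00418), although all 6 of its values lay below the array medians. Timp2, which blocks Mmp2 but also helps Mmp14 to activate its precursor, had 8.43, 8.50 and 8.83 in N1ICD cells, against 7.48, 7.72 and 7.87 in control cells. It rose 1.86-fold (log2 change 0.90 ± 0.14 SE, adjusted p = 0.00868). In all 3 genes the lowest N1ICD array stood above the highest control array, and each call held without any 1 array (adjusted p up to 0.0312).

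Timp1, an inhibitor commonly induced by cytokines, had 4.62, 4.49 and 4.37 in N1ICD cells, against 4.68, 4.32 and 4.53 in control cells. The groups overlapped, and the log2 change of -0.02 had a 95% interval of -0.30 to 0.27. Its sign turned with array weights (0.0052), without N1ICD replicate 3 (0.045) or without control replicate 1 (0.069).

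In the RefSeq table Timp1, Timp3 and Timp4 each lie inside a synapsin gene, which encodes a synaptic vesicle protein: Syn1, Syn3 and Syn2 in that order. The containing genes did not pass the test. Syn3 averaged 7.16 ± 0.14 in N1ICD cells and 7.39 ± 0.07 in control cells (SD, n = 3 each), a log2 change of -0.23 with the sign opposite to that of Timp3. Syn2 changed by -0.06 and Syn1 by 0.35 (adjusted p = 0.813 and 0.155 by limma).

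**Figure D4:**
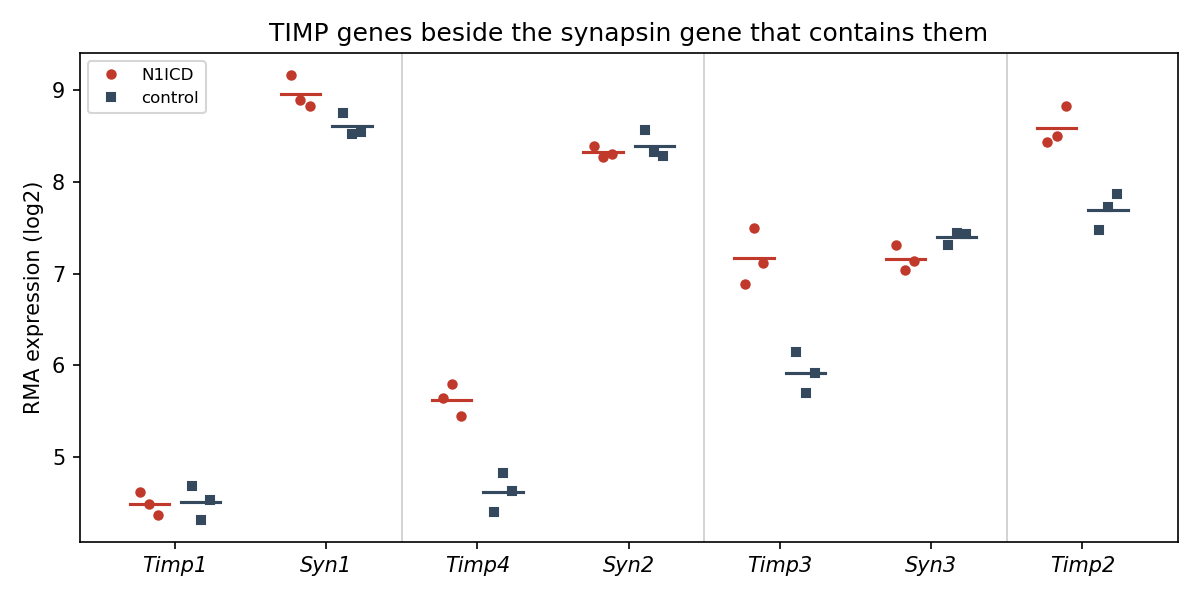
RMA expression (log2) on each array of the TIMP genes, each beside the synapsin gene that contains it in the RefSeq table (Timp2 lies in none), with N1ICD arrays as circles left of control arrays as squares and bars at the group means. Timp2, Timp3 and Timp4 were separated between groups, while Timp1 overlapped.

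Leaving out each array in turn, 8 of the 12 calls held in all 6 fits, namely those of Mmp13, Mmp2, Adamts5, Adamts18, Adamtsl2, Timp2, Timp3 and Timp4. Of these the highest adjusted p was 0.0435, for Adamtsl2 without N1ICD replicate 2. Without that array 2 members fell, Mmp2 and Adamtsl2, in place of 4.

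**Figure D5:**
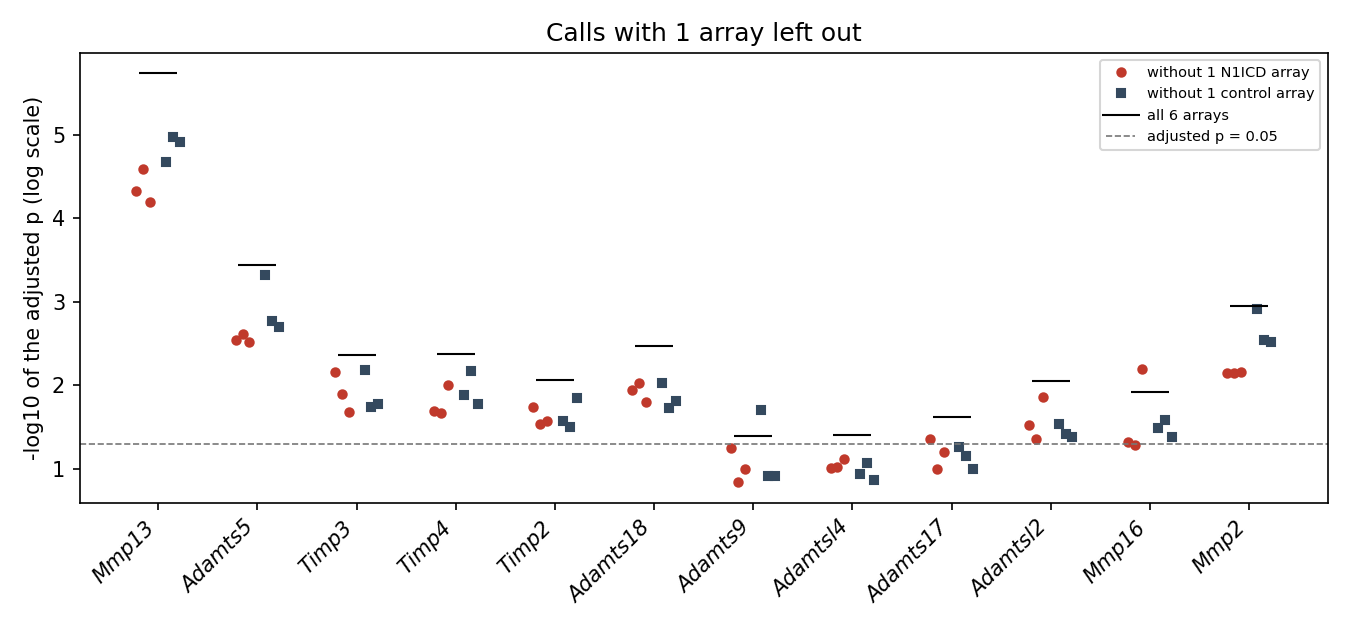
Minus log10 of the limma adjusted p for the 12 called members, with all 6 arrays (bars) and with 1 N1ICD array (circles) or 1 control array (squares) left out. The dashed line marks an adjusted p of 0.05. Adamtsl4 lay under it in each of the 6 fits with 1 array left out, and Mmp13 lay far above it in each.

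Other genes of the network that activates, blocks or clears these proteases had 37 measured members in a fixed list. Of these 6 rose and 3 fell (24.3%, median 0.06), against 7.10% called among all genes. Cd44, a hyaluronan receptor that can dock MMPs at the cell surface, had 7.70, 7.44 and 7.30 in N1ICD cells, against 5.93, 5.86 and 5.59 in control cells (log2 change 1.69 ± 0.14 SE, limma adjusted p = 0.00024). Lrp1, an endocytic receptor that clears MMPs, Adamts5 and TIMP complexes, had 7.92, 7.62 and 7.54 in N1ICD cells, against 6.88, 6.71 and 6.72 in control cells (0.92 ± 0.12, adjusted p = 0.00346). Both were higher on every N1ICD array. Spock3, a testican known to inhibit membrane-type MMPs, had 5.82, 5.52 and 5.77 in N1ICD cells, against 6.52, 6.52 and 6.68 in control cells (-0.87 ± 0.11, adjusted p = 0.003).

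The endocytic receptor Lrp2 fell by 0.87 on the log2 scale (adjusted p = 0.0455), a call that held only without control replicate 1 or without N1ICD replicate 3 among the fits lacking 1 array (highest adjusted p 0.155). It was also lost with quantile normalization again (adjusted p = 0.0653) and with all probe sets tested (adjusted p = 0.145). Serpinb6a (0.79, limma adjusted p = 0.0159), Itgb3 (0.62, adjusted p = 0.0324) and the cysteine protease inhibitor Cst3 (0.58, adjusted p = 0.00743) rose too. So did the proprotein convertase Furin, which activates membrane-type MMPs (0.50, adjusted p = 0.0237). The plasminogen activator Plau fell (-0.83, adjusted p = 0.0174). These other changed genes of the list were named after their values were seen. The changes of Cd44 and Plau were known when the list was drawn up. Without control replicate 2, 3 genes of the list rose in place of 6, and without N1ICD replicate 2 or control replicate 3, 1 fell in place of 3. Without control replicate 1, where Lrp2 kept its call, 2 fell. The call of Spock3 or Plau was thus also lost without N1ICD replicate 2, control replicate 3 or control replicate 1.

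Of 29 measured matrix proteins that these proteases cleave or that form their surroundings, 14 rose and 0 fell by limma (48.3%, median 0.33). Among all genes 7.10% were called and 3.82% rose. In the list 3 genes were lower at an unadjusted limma p under 0.05. Without control replicate 3, 9 rose. Decorin (Dcn, named after its value was seen) changed by -0.65 without passing (adjusted p = 0.0752). The list holds Vtn, Tnc, Sparc and Igfbp3, whose rises were known when it was drawn up. Vitronectin (Vtn) rose by 5.34 ± 0.16, tenascin C (Tnc) by 5.12 ± 0.16, Sparc by 4.23 ± 0.25 and fibrillin-2 (Fbn2) by 2.14 ± 0.25 on the log2 scale. Among the hyalectans that ADAMTS proteases cut, neurocan (Ncan) had 10.98, 10.62 and 10.60 in N1ICD cells, against 9.15, 8.95 and 9.03 in control cells (1.69 ± 0.13, adjusted p = 0.000161). Brevican (Bcan) and versican (Vcan), named after their values were seen like neurocan, rose by 1.30 ± 0.18 and 0.90 ± 0.19. The remaining hyalectan, aggrecan (Acan), changed by -0.15 with overlapping groups and did not pass (limma adjusted p = 0.707).

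The membrane-anchored ADAM proteases, relatives without the thrombospondin motifs, had 33 measured genes, of which 2 rose (6.06%, median 0.07), close to the share of all genes. These were Adam12 (0.49 ± 0.11, adjusted p = 0.0325) and Adam19 (0.49 ± 0.09, adjusted p = 0.0172). Neither kept its call without N1ICD replicate 2, without control replicate 2, or with all probe sets tested (adjusted p = 0.108 and 0.0663). In each of the other fits lacking 1 array, 1 ADAM gene rose in place of 2.

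Markers of other cell types that make these proteases were examined on the same arrays. Of 10 fibroblast markers, Pdgfrb rose and Pdgfra fell, and the mean over the list was 5.59 to 5.71 in N1ICD arrays and 5.53 to 5.63 in control arrays. Of 10 macrophage markers Lyz2 rose, and the list mean was 4.78 to 4.85 in N1ICD arrays and 4.76 to 4.87 in control arrays. Of 8 endothelial markers the receptors Kdr (3.04 ± 0.17) and Tek (1.06 ± 0.14) rose, and the list mean was 6.03 to 6.12 in N1ICD arrays and 5.47 to 5.55 in control arrays. The other 6 endothelial markers did not pass the test, Pecam1 and Cdh5 among them with changes of 0.07 and -0.01. RMA values have no zero, so absence cannot be read from them. The part of these marker genes in the results was not tested. Of 8 neuroendocrine markers measured, which mark the labelled tumor type, Chga (0.64) and Ncam1 (0.53) rose and Insm1 (-0.89) and Dll3 (-1.43) fell, while Uchl1, Syp, Scg2 and Neurod1 did not pass. The list mean was 9.05 to 9.25 in N1ICD arrays and 9.27 to 9.39 in control arrays. In control cells 7 of the 8 had means above every array median, and Neurod1, at 5.59, was below.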

How the data were processed

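The deposited values are log2 expression after RMA (background correction, quantile normalization, probe set summary) by the authors, per the submitters' processing notes, which give no version. Base 2 was taken as RMA's own. The build of the annotation is not stated. RMA gives all arrays a like distribution, so a change of total RNA would not show.

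The platform annotation gave 1 symbol to 23521 of 41345 probe sets and several to 1814, and 16010 were unlisted. The brightest single-symbol probe set by the 6-array mean represented each gene. Each called member had 1 such probe set, and Mmp7, Mmp11, Adamts8 and Adamts14 had 2. No array duplicated another.

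Groups came from the labels. The fit used limma 3.58.1 in R 4.3.3 (lmFit, eBayes, two-sided, Benjamini-Hochberg over 22180 genes). Values after ± are SEs of that fit beside a log2 change and SDs beside a mean. The fit was checked on simulated data. Figures were drawn with matplotlib 3.10.9.

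Members and lists were chosen with earlier results of these data known. Named were all called members, a preset set of members, separated members changed by at least 0.5, the 5 members highest in control cells, and up to 4 changed genes of each other list. Further members were named to complete their families. Alternatives covered normalization, dim genes, probe sets, variance model, array weights, a replicate block and each array left out. For the 3 other lists they were added after the data were seen, as was testing all probe sets.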

Additional observations from a re-analysis of the deposited data

How the results depend on the processing

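Leaving out 1 array gave 6 to 8 rises and 2 to 4 falls among the members, against 8 and 4 with all arrays. Over all genes it gave 548 to 709 rises and 275 to 585 falls, against 848 and 726. The median change of the members was 0.031 to 0.094. It gave 3 to 5 rises and 1 to 3 falls in the protease network list, 9 to 13 rises and 0 falls by limma among the matrix proteins, and 0 to 1 rises and 0 to 1 falls among the ADAM genes.

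With the 11279 genes whose mean reached the lowest array median, 13 members remained, 5 rose and 4 fell, and their median was 0.29, because dim members were no longer tested. Over all genes 920 then rose and 1286 fell, and 1 gene of the protease network list fell. An intensity trend with robust eBayes gave 1049 rises and 1227 falls over all genes, and 9 and 4 among the members. Array weights gave 10 and 4, quantile normalization again 8 and 4, equal medians 7 and 4, and the mean over probe sets 8 and 4. With all probe sets tested, 6 members rose and 2 fell, 480 genes rose and 226 fell, and 3 and 1 did so in the protease network list. In that setting 9 matrix proteins and 0 ADAM genes rose by limma. Both its variance estimates and its adjustment covered more features. Quantile normalization again ended the call of Lrp2 (adjusted p = 0.0653). Adamts13 passed under the intensity trend, array weights and without N1ICD replicate 1, and Adamts15 under the last of these and array weights. Adamtsl4 did not pass with equal array medians (adjusted p = 0.0646). Among the matrix proteins 1 gene, Dcn, fell under equal medians, the intensity trend and the replicate block. Among the ADAM genes 1 rose under equal medians, the dim filter, the mean over probe sets and the replicate block, and 1, Adam22, fell under the dim filter, the intensity trend and array weights. Under the dim filter Lrp2, Spock3 and Adam19 were not tested, because their means did not reach the lowest array median. The cause of the other moves was not tested.

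Deviations from the group means correlated over genes at 0.23, 0.01 and 0.20 between same-numbered arrays of the groups. Between differently numbered arrays the correlations lay between -0.23 and 0.06. The labels do not name the numbers as pairs, and the main fit did not pair them. Whether they are pairs was not tested. With the replicate block 6 members rose and 4 fell. Adamts9 (adjusted p = 0.0795) and Adamtsl4 (adjusted p = 0.0695) did not pass.

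Adamts20 turned sign without N1ICD replicate 1 or control replicate 3 (-0.097 to 0.036 with 1 array left out). Mmp14 did so without the same arrays (-0.13 to 0.57), and Timp1 without N1ICD replicate 3 or control replicate 1 (-0.11 to 0.069) or with array weights (0.0052). None of these 3 passed in any of those fits by limma. Background was not measured, and 32 of the 49 members lay below every array median in both groups, so changes of such genes may be understated.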

Other observations

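Mmp14 varied more between replicate numbers than between groups. Its values were 6.88, 5.88 and 5.70 in N1ICD replicates 1, 2 and 3, against 6.58, 5.82 and 5.35 in control replicates 1, 2 and 3. With the replicate number as a block, the SE of its change was 0.10 in place of 0.37, and the adjusted p by limma was 0.229.

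Of the 4 members with 2 probe sets, Mmp7 changed by 0.22 at the probe set not used and by -0.11 at the brighter one, and Adamts8 by 0.32 and 0.01. Adamts14 had 0.11 and 0.03, and Mmp11 0.15 and 0.03. None of these 8 probe sets passed the limma test among all probe sets, with adjusted p-values between 0.562 and 0.991.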
